A study of Mus musculus with 7 samples.

Results

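Small RNA libraries of CD8+ T cells sorted from mouse spleen were searched for 10 microRNAs (miRNAs) that are known from cells other than T cells: mmu-miR-486a-5p, mmu-miR-486b-5p and mmu-miR-451a of red cell precursors, mmu-miR-223-3p of myeloid cells, mmu-miR-126a-3p, mmu-miR-126a-5p, mmu-miR-10a-5p and mmu-miR-10b-5p of endothelial or blood progenitor cells, and mmu-miR-143-3p and mmu-miR-145a-5p of smooth muscle and stroma. They were taken by name from the 1978 mature mouse miRNAs listed, and all 10 were found (the prefix mmu is left out below). The mice were neonatal or adult gBT-I animals, whose T cells carry a transgenic receptor of a single specificity. Virtual memory (VM) cells were sorted as CD44hi CD122hi and true naive (TN) cells as CD44lo CD122lo. Per the labels, CD8+ cells were enriched with beads before sorting to over 95% purity. Each age and subset had 2 libraries except neonatal TN, which had 1 and so has no SD. The labels used here give neither ages in days nor whether replicates came from separate mice. The p-values therefore cover only how much these libraries vary, and that variation may be technical.

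MiRNAs are RNAs of about the same short length, cut from hairpins, that pair with messenger RNAs through a seed at bases 2 to 8 and lower their output. Their lineage bias makes them useful labels of cell type. MiR-451a accumulates in maturing red cells from a GATA1-driven hairpin that Argonaute 2 cuts in place of Dicer, and miR-486 from the Ank1 gene is abundant in red cells and muscle. MiR-223 is switched on by C/EBP factors and PU.1 in granulocytes and monocytes, miR-126 comes from the endothelial gene Egfl7 and is also kept in blood stem cells, the miR-10 pair lies in the Hox clusters, and miR-143 and miR-145a come from neighbouring hairpins active in smooth muscle.

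The RefSeq table (GRCm38.p6) held 5 of the 10 mature sequences. They are shown because the seed tells which markers share targets and because the miR-10 pair is nearly identical; capitals mark the seed.
miR-451a: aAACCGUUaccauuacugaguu
miR-223-3p: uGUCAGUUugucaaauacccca
miR-126a-3p: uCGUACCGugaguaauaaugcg
miR-10a-5p: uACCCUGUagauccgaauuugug
miR-10b-5p: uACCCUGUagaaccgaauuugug
Among these 5, only miR-10a-5p and miR-10b-5p share a seed. Counted from 1 at the 5′ end of miR-10a-5p, they differ by the single substitution U12A over 23 bases.

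The 5 hairpins behind those sequences and the 2 of miR-486 lie, on GRCm38 (GENCODE M21), at Mir451a on chromosome 11 (78073170 to 78073241, plus strand, in no gene of its strand), Mir223 on chromosome X (96242817 to 96242926, plus strand, in an exon of the antisense gene F630028O10Rik), Mir126a on chromosome 2 (26591357 to 26591429, plus strand, in an annotated exon of Egfl7), Mir10a on chromosome 11 (96317165 to 96317274, plus strand, 993 bases from Hoxb4), Mir10b on chromosome 2 (74726070 to 74726137, plus strand, in an intron of Hoxd3 and Hoxd4), and Mir486 (23142555 to 23142682, plus strand, in an intron of Ank1) and Mir3107 (23142573 to 23142662, minus strand) on chromosome 8. Mir3107 yields miR-486b and lies wholly inside the span of Mir486 on the other strand.

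Levels are CPM (deposited counts relative to library size) scaled by TMM factors, which centre the libraries on most miRNAs; since mature miRNAs are of nearly equal length, no length correction was made, but ligation bias makes levels of different miRNAs only roughly comparable. Library totals ran from 1577031 to 3278451 counts. The 10 markers together took 0.0301% to 0.0748% of a library's counts (lowest in adult TN replicate 1, 95% Wilson interval 0.0279 to 0.0326%, highest in adult VM replicate 2, 0.0719 to 0.0778%; reads are not independent molecules, so intervals and floors cover counting error only). A list of 7 miRNAs known from T cells, among them miR-150-5p, miR-181a-5p and miR-142a-5p as the most abundant, took 21.4% to 46.4%. Whether cells other than T cells added to this share was not tested. In bulk RNA, fewer cells of a type and less RNA per cell cannot be told apart.

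**Figure D1:**
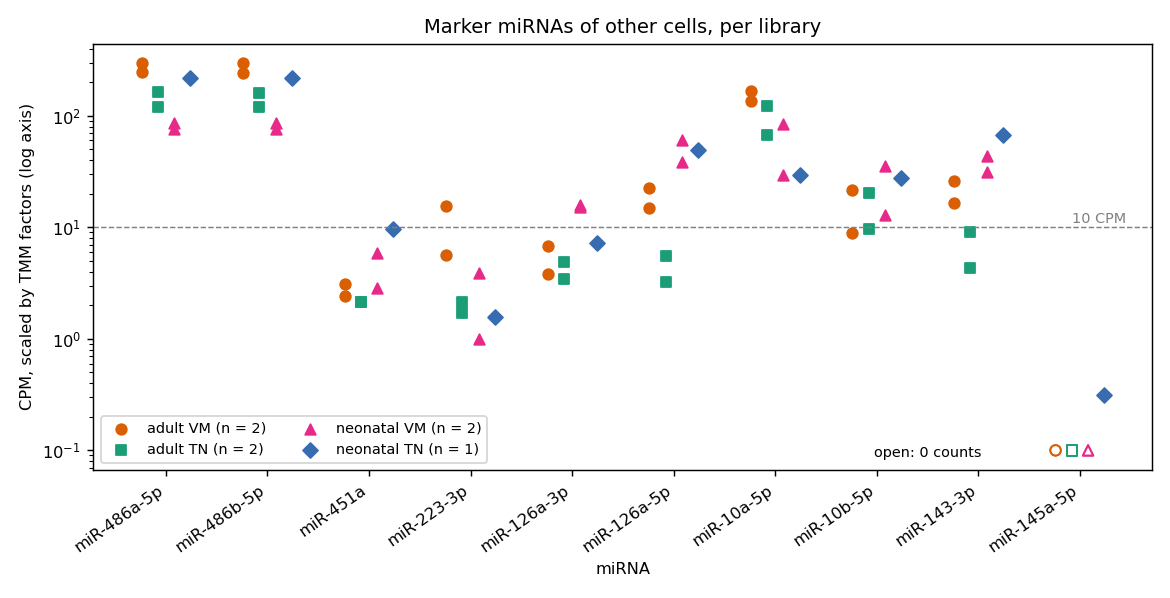
CPM scaled by TMM factors (log axis) of each marker miRNA, 1 point per library, coloured by group; open symbols at the bottom are libraries with 0 counts and the dashed line is 10 CPM. MiR-486a-5p and miR-486b-5p sit between 75.8 and 295 CPM in all 7 libraries, while miR-451a stays between 2.14 and 9.65 CPM and miR-145a-5p is at 0 in 6 of 7.

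The markers covered a wide range of levels. In adult VM cells, the order ran from miR-486a-5p (270 ± 33.9 CPM, SD, n = 2) and miR-486b-5p (269 ± 36.6) through miR-10a-5p (151 ± 21.1) to a middle tier of miR-143-3p (21.2 ± 6.66), miR-126a-5p (18.7 ± 5.36) and miR-10b-5p (15.1 ± 8.89). Below these came miR-223-3p (10.6 ± 7.02), miR-126a-3p (5.32 ± 2.15) and miR-451a (2.76 ± 0.492), and miR-145a-5p had 0 counts. The libraries of the 3 middle members overlapped, as did those of miR-223-3p with miR-126a-5p, miR-10b-5p and miR-126a-3p, so their order is within the spread; miR-486 and miR-10a-5p did not overlap each other. In adult TN cells miR-10a-5p (94.4 ± 38.9 CPM) overlapped miR-486a-5p (141 ± 28.9), and in the neonatal TN library miR-143-3p (67.2 CPM) and miR-126a-5p (49.8) stood above miR-10a-5p (29.6).

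A member was tested when it had at least 10 CPM in at least 2 libraries, and 7 of the 10 did, among 288 miRNAs tested. The 3 untested ones were miR-451a, miR-223-3p and miR-145a-5p. MiR-126a-3p reached that level in 2 libraries, both of neonatal VM, so it passed the filter only through the group in which it was highest. Its age and subset values are given below as a description from the fit with no filter. It is left out of the counts of members that passed by age, subset or interaction. All tests below are edgeR quasi-likelihood tests adjusted over the 288 by Benjamini-Hochberg, with calls at an adjusted p of at most 0.05.

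The erythroid markers split into an abundant and a scarce part. MiR-486a-5p had 611 and 850 counts in adult VM replicates 1 and 2, 224.5 and 378 in adult TN, 174.5 and 293.5 in neonatal VM and 707 in neonatal TN. As CPM these were 246 and 294, 121 and 162, 86.0 and 76.8, and 220. Adult VM was thus highest, neonatal VM lowest, and no group overlapped another. MiR-486b-5p had nearly the same value in every library, with a count ratio of miR-486a-5p to miR-486b-5p between 0.995 and 1.02, so the 2 names, from opposite strands of 1 locus, cannot be told apart and count as 1 measurement.

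The age difference of miR-486 depended on the subset. Within VM cells, miR-486a-5p was 3.32-fold lower in neonatal than in adult libraries (log2 fold change -1.73, SE 0.23, edgeR adjusted p = 7.38e-05). Within TN cells, the neonatal library was 1.55-fold above the adult mean, which did not pass (log2 fold change 0.64, SE 0.27, edgeR adjusted p = 0.0727). It passed with library totals (1.01, edgeR adjusted p = 0.00653) and without adult VM replicate 1 (0.60, 0.0345) or 2 (0.60, 0.0136), and stood at 0.33 with upper quartile factors and 0.32 without adult TN replicate 1. A test of the difference between these 2 age differences passed, at -2.37 on the log2 scale (SE 0.35, edgeR adjusted p = 0.00108), and for miR-486b-5p at -2.36 (SE 0.36, edgeR adjusted p = 0.00108). Counted without miR-126a-3p, 3 of 6 members, from 2 loci, passed this interaction test with negative values. Of all 288 tested miRNAs, 7.99% passed, 18 of them with negative values. MiR-486a-5p kept its interaction call in every alternative run that could be fitted, and with libraries left out its values ran from -2.46 to -2.09. All of these rest on the 1 neonatal TN library. Averaged over both subsets, the opposite directions left miR-486a-5p at -0.71 (SE 0.46, edgeR adjusted p = 0.224), uncalled. Without the neonatal TN library this comparison rested on VM cells alone and was no average, at -1.71, which passed (edgeR adjusted p = 1.07e-04).

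Between the adult subsets, miR-486a-5p was 1.91-fold higher in VM than in TN cells (log2 fold change 0.93, SE 0.23, edgeR adjusted p = 0.00856). Without adult TN replicate 1 or 2 this was 0.62 (edgeR adjusted p = 0.133) and 1.11 (0.057). The comparison shares the adult VM libraries with the age comparison within VM, so the high adult VM values enter both; likewise the adult TN libraries enter the age comparison within TN.

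MiR-451a, the defining miRNA of maturing red cells, had 6 and 9 counts in adult VM replicates 1 and 2, 4 and 5 in adult TN, 12 and 11 in neonatal VM and 31 in neonatal TN. That is 2.15 ± 0.0131 CPM in adult TN, 2.76 ± 0.492 in adult VM and 4.40 ± 2.16 in neonatal VM (SD, n = 2 each), and 9.65 CPM in neonatal TN, where the exact 95% Poisson interval on 31 counts is 21.1 to 44. Neonatal TN was highest, and the 4 adult libraries (2.14 to 3.11 CPM) overlapped the neonatal VM ones. The remaining erythroid miRNAs fixed for comparison stayed low: miR-144-3p and miR-144-5p, from the hairpin next to miR-451a, had at most 3 counts in any library, and the passenger arm miR-486a-3p had 1.5 to 11.5. Of the 7 erythroid list members, 4 reached 10 counts in a library and 2 were tested.

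Set against miR-451a, miR-486 was present in large excess in every library. The summed count of miR-486a-5p and miR-486b-5p was 203 and 189 times that of miR-451a in adult VM, 112 and 151 times in adult TN, 29.0 and 53.1 times in neonatal VM and 45.2 times in neonatal TN. Adult and neonatal libraries did not overlap, with a 3.88-fold difference of the mean ratio that did not pass (exact permutation test, 4 adult against 3 neonatal libraries, two-sided p = 0.0571, the smallest this design allows; adjusted p = 0.143 over 5 ratios chosen after the values were seen). The erythroid list as a whole, carried almost entirely by miR-486, summed to 500 to 595 CPM in adult VM, 246 to 329 in adult TN, 157 to 179 in neonatal VM and 447 in neonatal TN. Its order across groups follows miR-486 and not miR-451a, which was highest in the neonatal TN library and low in adult VM.

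**Figure D2:**
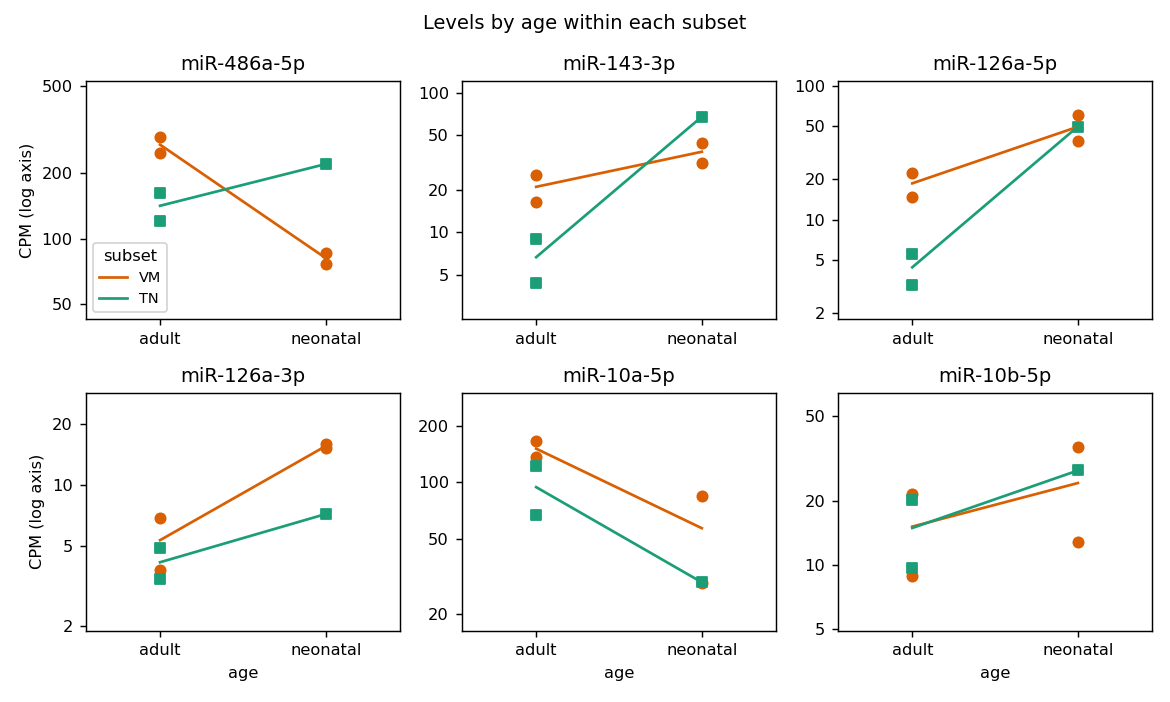
CPM scaled by TMM factors (log axis) against age for 6 tested members, with 1 point per library (circles VM, squares TN) and lines joining group means. The lines cross for miR-486a-5p, which falls from 270 to 81.4 CPM in VM cells and stands at 141 and 220 CPM in adult and neonatal TN cells. They also cross for miR-143-3p, at 37.8 CPM in neonatal VM and 67.2 in neonatal TN cells. For miR-126a-5p (49.6 and 49.8) and miR-10b-5p (24.2 and 27.7) they cross with neonatal means close together. In adult cells, miR-126a-5p and miR-143-3p are lower in TN than in VM.

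MiR-223-3p, the main myeloid miRNA, was scarce. It had 14 and 45 counts in adult VM replicates 1 and 2, 4 and 4 in adult TN, 2 and 15 in neonatal VM and 5 in neonatal TN. As CPM, adult VM (5.64 and 15.6) lay above every other library (0.989 to 3.92), but its replicates differed 2.76-fold and those of neonatal VM 3.96-fold. The highest value was that of adult VM replicate 2 (45 counts, exact 95% Poisson interval 32.8 to 60.2). Its passenger arm miR-223-5p had 0 to 2 counts per library. The myeloid list of these 2 arms summed to 6.44 to 15.9 CPM in adult VM, 1.71 to 2.16 in adult TN, 0.989 to 4.18 in neonatal VM and 1.87 in neonatal TN. Only adult VM replicate 2 reached 10 CPM, so the miRNA was not tested; the mean of adult VM was 2.45 above that of adult TN on the log2 scale.

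Of the arms of miR-126a, the endothelial and progenitor miRNA, miR-126a-5p rose in neonatal cells. MiR-126a-5p had 37 and 65 counts in adult VM replicates 1 and 2, 6 and 13 in adult TN, 78 and 232 in neonatal VM and 160 in neonatal TN. The neonatal libraries (38.6 to 60.6 CPM) lay above all adult ones (3.24 to 22.5), and adult TN lay below adult VM. Over both subsets miR-126a-5p was 4.50-fold higher in neonatal cells (log2 fold change 2.17, SE 0.44, edgeR adjusted p = 0.00326). Without the neonatal TN library the comparison rested on VM cells alone, at 1.44 on the log2 scale. MiR-126a-3p had 17 and 11 counts in adult VM, 9 and 8 in adult TN, 32 and 58 in neonatal VM and 23 in neonatal TN. The neonatal libraries (7.16 to 15.8 CPM) lay above the adult ones (3.42 to 6.84), with the neonatal TN library close to the highest adult one. With no filter its age difference was 1.13 on the log2 scale.

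MiR-126a-5p rose with neonatal age in TN cells (log2 fold change 3.46, SE 0.48, edgeR adjusted p = 1.28e-04) and in VM cells (1.41, SE 0.36, edgeR adjusted p = 0.00599), the latter at 1.04 without neonatal VM replicate 2 (edgeR adjusted p = 0.0954). The difference between the subsets was -2.05 (SE 0.62, edgeR adjusted p = 0.0582) and did not pass, although it did with the replicate number as a block (-2.45, edgeR adjusted p = 0.0151), without a filter (0.017), and without adult VM replicate 1 (-2.27, 0.00175) or 2 (-1.62, 0.0352). MiR-126a-3p stood at 15.5 ± 0.473 CPM in neonatal VM against 5.32 ± 2.15 in adult VM cells (SD, n = 2 each), a difference of 1.43 on the log2 scale with no filter. Between adult subsets miR-126a-5p was 4.15-fold higher in VM cells (log2 fold change 2.05, SE 0.45, edgeR adjusted p = 0.00467), on 6 and 13 counts in the TN libraries. Without adult TN replicate 1 or 2 it was 1.62 (edgeR adjusted p = 0.0912) and 2.47 (0.0606).

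The ratio of the 2 arms varied between libraries, also between replicates of a group. The count ratio of miR-126a-5p to miR-126a-3p was 2.18 and 5.91 in adult VM, 0.667 and 1.62 in adult TN, 2.44 and 4 in neonatal VM and 6.96 in neonatal TN. Adult TN replicate 1 was the single library with more of the 3p arm, on only 6 counts of the 5p and 9 of the 3p arm. The 2 ages overlapped (exact permutation test, two-sided p = 0.229, adjusted p = 0.229 over 5 ratios).

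In the miR-10 pair, whose mature forms differ by a single base, miR-10a-5p fell with neonatal age over both subsets and miR-10b-5p did not pass. MiR-10a-5p had 338 and 480 counts in adult VM replicates 1 and 2, 124 and 285 in adult TN, 172.5 and 113 in neonatal VM and 95 in neonatal TN. At 85.0 and 29.5 CPM the neonatal VM replicates differed 2.88-fold, and replicate 1 lay within the adult range of 66.9 to 166 CPM. Over both subsets it was 2.86-fold lower in neonatal cells (log2 fold change -1.52, SE 0.40, edgeR adjusted p = 0.0115). Without the neonatal TN library the comparison rested on VM cells alone, at -1.40 (edgeR adjusted p = 0.0591). Within VM (-1.42, SE 0.52, edgeR adjusted p = 0.0562) and within TN cells (-1.68, SE 0.69, edgeR adjusted p = 0.0862) it did not pass. DESeq2 called both (adjusted p = 0.0275 and 0.0231), as did edgeR with no filter (adjusted p = 0.00138 and 0.00463). The value within VM depended on the neonatal replicate, at -2.33 without replicate 1 (edgeR adjusted p = 6.2e-05) and -0.82 without replicate 2 (0.0978). It also passed within VM with non-robust dispersions (0.0334) and without adult TN replicate 1 (0.0403). Within TN it passed with upper quartile factors (-1.98, edgeR adjusted p = 0.0493) and without neonatal VM replicate 1 (0.00114) or 2 (0.000741), while library totals gave -0.91 and -1.29 within VM and TN, uncalled.

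MiR-10b-5p had 22 and 62 counts in adult VM, 18 and 47 in adult TN, 71.5 and 49 in neonatal VM and 89 in neonatal TN. The 2 ages overlapped, at 8.86 to 21.4 CPM in adult and 12.8 to 35.6 in neonatal libraries, and the difference of 0.73 (SE 0.45, edgeR adjusted p = 0.205) did not pass; scaled by library totals alone it was 1.20 (0.0477). The ratio within the pair, which does not depend on scaling between libraries, was 15.4 and 7.74 in adult VM, 6.89 and 6.06 in adult TN, 2.41 and 2.31 in neonatal VM and 1.07 in neonatal TN. Every adult library held at least 6.06 times as much miR-10a-5p as miR-10b-5p and every neonatal one at most 2.41 times, with a 4.64-fold difference of the mean ratio that did not pass (exact permutation test, 4 against 3 libraries, two-sided p = 0.0571, the smallest possible; adjusted p = 0.143 over 5 ratios). Fractional counts in neonatal VM replicate 1 show that some reads were shared between names, and with 1 base between the pair the division of reads between them is uncertain.

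The endothelial and progenitor list of 10, which also held miR-196a-5p, miR-196b-5p, miR-125b-5p, miR-100-5p and the miR-10 passenger arms, had 4 tested members, all described above. Of these, leaving out miR-126a-3p, 1 rose and 1 fell with neonatal age over both subsets. Of all tested miRNAs, 26.4% rose and 27.4% fell in that comparison, so these calls do not set the list apart. The other 6 reached at most 6 counts in a library, and miR-10b-3p was at 0 in all 7. The list summed to 168 to 214 CPM in adult VM, 85.3 to 155 in adult TN, 120 to 181 in neonatal VM and 117 in neonatal TN, so the adult and neonatal sums overlapped.

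**Figure D3:**
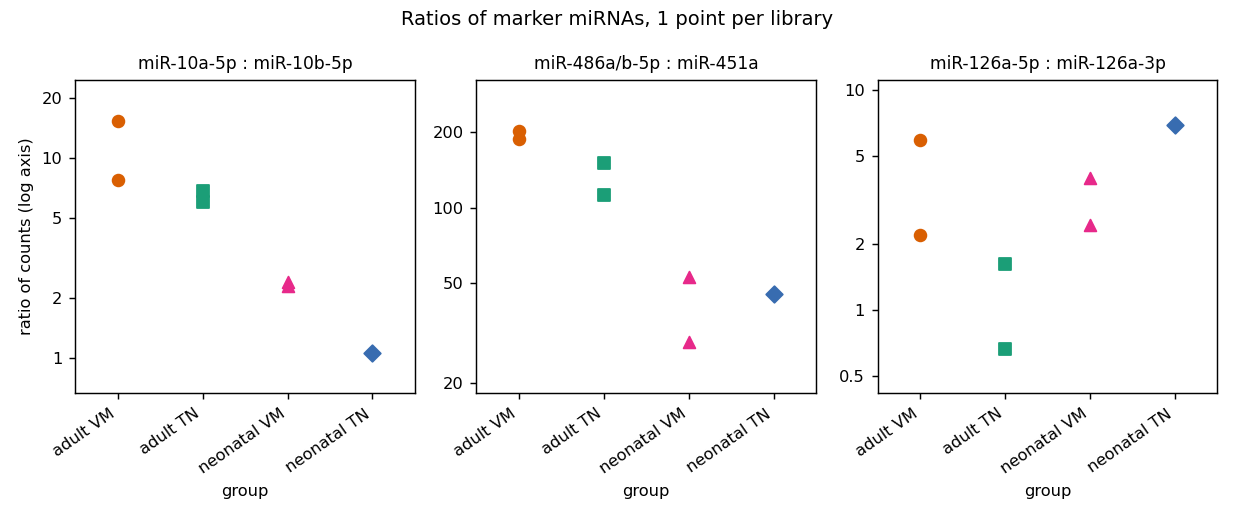
Ratio of deposited counts (log axis) for 3 pairs of marker miRNAs, 1 point per library by group. Neonatal libraries lie at 1.07 to 2.41 for miR-10a-5p to miR-10b-5p and adult ones at 6.06 to 15.4; for miR-486 to miR-451a they lie at 29.0 to 53.1 against 112 to 203; for the miR-126a arms the ages overlap.

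Of the 2 stromal markers, 1 was present and the other nearly absent. MiR-143-3p had 41 and 75 counts in adult VM replicates 1 and 2, 8 and 21 in adult TN, 64 and 168 in neonatal VM and 216 in neonatal TN. The 3 neonatal libraries (31.6 to 67.2 CPM) lay above the 4 adult ones (4.32 to 25.9), neonatal TN highest and adult TN lowest. Its partner miR-145a-5p had 1 count in the neonatal TN library and 0 in the other 6, where a count of 0 allows up to 3 counts, or 0.784 to 1.62 CPM depending on the library. The passenger arm miR-143-5p was at 0 in every library.

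Over both subsets miR-143-3p was 3.52-fold higher in neonatal cells (log2 fold change 1.82, SE 0.51, edgeR adjusted p = 0.0163). This call was lost without adult TN replicate 1 (log2 fold change 1.40) or adult TN replicate 2 (1.62). Without the neonatal TN library the comparison rested on VM cells alone, at 0.86 (edgeR adjusted p = 0.0753). Within TN cells it was 9.82-fold higher in the neonatal library (log2 fold change 3.30, SE 0.47, edgeR adjusted p = 1.32e-04), on 8 and 21 adult counts, and within VM cells it did not pass (0.84, SE 0.37, edgeR adjusted p = 0.0769), though it did with RLE factors (0.94, 0.0442), upper quartile factors (0.94, 0.0469), library totals (1.35, 0.00711). Without adult VM replicate 2 it also passed (1.26, 0.00398). The difference between the subsets passed at -2.46 (SE 0.60, edgeR adjusted p = 0.0296). Without adult TN replicate 1 it was -1.97 (edgeR adjusted p = 0.191), without adult TN replicate 2 -2.98 (0.108) and without neonatal VM replicate 1 -2.14 (0.0673).

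Between adult subsets miR-143-3p was 3.12-fold higher in VM cells (log2 fold change 1.64, SE 0.44, edgeR adjusted p = 0.0119), and 1.12 (0.138) and 2.24 (0.0606) without adult TN replicates 1 and 2. Mir143 (chromosome 18, 61649196 to 61649258) and Mir145a (chromosome 18, 61647825 to 61647894) lie on the minus strand of GRCm38, in no annotated gene of that strand. The other stromal and muscle miRNAs gave no parallel signal that could be tested: of 11 in the list, miR-143-3p alone reached 10 counts in a library. The muscle miRNAs miR-1a-3p and miR-206-3p, and miR-214-3p and miR-199b-5p, were at 0 throughout, miR-133a-3p had 1 to 5 counts and miR-199a-3p, often read as a fibroblast miRNA, 0.66 to 7.34. The list summed to 18.5 to 28.7 CPM in adult VM, 5.94 to 10.3 in adult TN, 35.6 to 47.8 in neonatal VM and 70.6 in neonatal TN. The liver miRNA miR-122-5p had 2 counts in adult TN replicate 1 and 0 elsewhere.

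**Figure D4:**
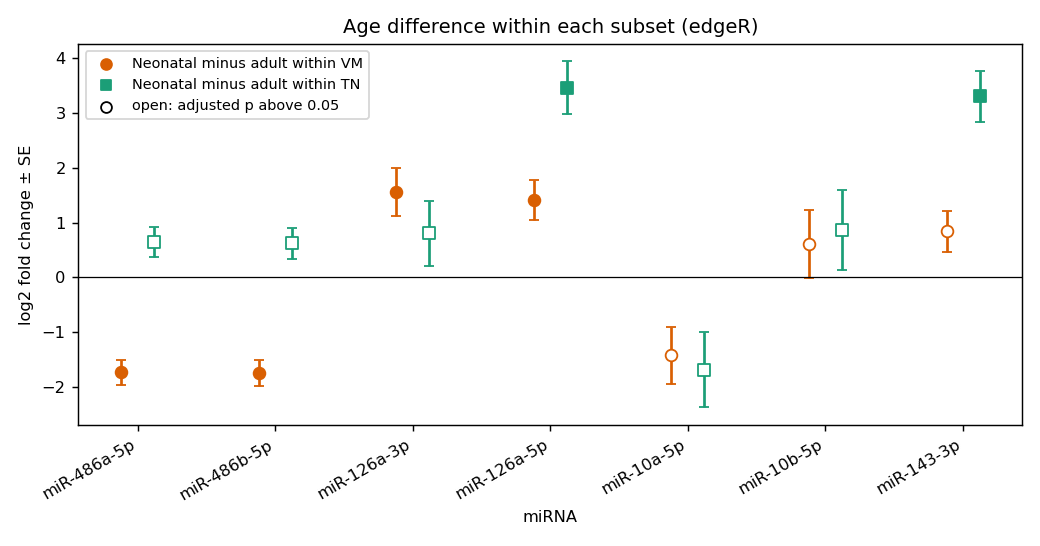
Log2 fold change of neonatal over adult cells (points, with SE bars) for the 7 tested members within VM (circles) and TN cells (squares). Open symbols did not pass at an adjusted p of 0.05. MiR-126a-3p entered only through its neonatal VM libraries. Its points, from the main fit, are a description, and its filled VM symbol does not count as a passed test. MiR-486a-5p lies at -1.73 in VM and 0.64 in TN cells, and miR-143-3p at 0.84 and 3.30.

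Counted without miR-126a-3p, 2 of 6 members rose and 1 fell with neonatal age over both subsets (edgeR), while 53.8% of all tested miRNAs were called, 26.4% higher and 27.4% lower. Their median log2 fold change was 0.01, against -0.05 for all 288. The 6 hold both miR-486 names (-0.71 and -0.72), which count as 1 measurement. With miR-486 entered once, the middle value was that of miR-10b-5p, at 0.73, so the median depends on this choice. Within VM cells 1 of 6, miR-126a-5p, rose and 2, both miR-486 names, fell (53.8% of all tested miRNAs were called, 66 higher and 89 lower). Within TN cells 2 of 6 rose, miR-126a-5p and miR-143-3p, and 0 fell (47.9% called, 76 higher and 62 lower). None of these shares stands clearly apart from that of all miRNAs, and the TN values rest on 1 neonatal library.

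By subset, again without miR-126a-3p, 0 of 6 members passed over both ages by edgeR, against 24.7% of all tested miRNAs. The count was also 0 of 6 at an unadjusted p of 0.05 and 0 of 6 by DESeq2. With no filter 2 of these did, miR-126a-5p at 1.01 (edgeR adjusted p = 0.022) and miR-10a-5p at 0.81 (0.0235). The otherwise untested miR-223-3p also passed in that fit, at 1.89 (edgeR adjusted p = 0.0106), and miR-126a-3p stood at 0.75. In the main fit miR-126a-5p came nearest, at 0.98 (SE 0.46, edgeR adjusted p = 0.153), then miR-10a-5p at 0.77 (SE 0.39, 0.169). MiR-143-3p stood at 0.41, miR-486a-5p at -0.08, miR-486b-5p at -0.07 and miR-10b-5p at -0.09. The adult libraries alone gave another picture. There, 4 of 6 were higher in adult VM than in adult TN cells, and 0 were lower. They were miR-126a-5p, miR-143-3p and both miR-486 names, which count as 1 measurement. Of all 288 tested miRNAs, 38.9% were called, 67 higher and 45 lower. These member calls were lost without adult TN replicate 1 and also without replicate 2. Without the neonatal TN library, the subset comparison over both ages rested on adult cells and called the same 4, with miR-486a-5p at 0.92, miR-486b-5p at 0.93, miR-126a-5p at 2.04 and miR-143-3p at 1.63. The untested miR-223-3p and miR-451a, and miR-10a-5p, also had both adult VM libraries above both adult TN libraries, while miR-126a-3p and miR-10b-5p overlapped. At the same time the T cell list took 31.7% and 33.7% of counts in adult VM and 45.1% and 46.4% in adult TN libraries; the part of this difference in the marker values was not tested.

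Among tested miRNAs outside the set, those with the most similar profiles were found by the root mean square difference of centred log2 CPM over the 7 libraries. For miR-486a-5p they were miR-378c (0.38) and miR-378a-3p (0.44), against a median of 0.91 over all tested non-members, and at 2407 and 16537 CPM both were far more abundant. For miR-143-3p they were miR-146b-5p (0.42) and miR-677-5p (0.52; median 1.29), yet miR-126a-5p was nearer still (0.36). For miR-126a-5p they were miR-148a-5p (0.50) and miR-210-3p (0.55; median 1.47). MiR-126a-3p was nearest to miR-330-5p (0.27) and miR-148b-5p (0.33; median 0.96). Its closest marker was miR-10b-5p and not its own 5p arm, but at 0.90 this lay near that median. The adult part of its profile rests on 8 to 17 counts per library. MiR-10a-5p was nearest to miR-6516-5p (0.39) and miR-1843a-3p (0.44), and miR-10b-5p to miR-324-3p (0.42) and miR-106b-3p (0.44). The nearest marker to miR-10a-5p was miR-486b-5p, at 0.84 against a median of 1.07.

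Scaling mattered for the age comparisons, since TMM factors were 1.08 to 1.28 in neonatal and 0.781 to 0.915 in adult libraries. With library totals in place of TMM, the median log2 fold change of all tested miRNAs with age was 0.40 against -0.05, and 69.2% of calls were higher in neonatal cells against 49.0%. No member turned sign with age under RLE, library total or upper quartile scaling, and miR-126a-5p, miR-143-3p and miR-10a-5p kept their age calls under all of these.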

How the data were processed

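The authors deposited estimated counts per mature miRNA and precursor, fractional where reads were shared; the build is mm10 per the submitters' processing notes, while aligner and counter are not given in the sources used here. Per the labels' protocols, libraries came from the Illumina TruSeq small RNA kit on cells sorted to >95% purity. The 2128 lines were summed to 1978 mature names and rounded, and libraries were grouped by title. The filter kept miRNAs that reached 10 CPM (15.8 to 32.8 counts) in 2 or more libraries. These were tested in edgeR 4.0.16 (R 4.3.3) with TMM factors, robust dispersions and Benjamini-Hochberg adjustment at 0.05. An additive model gave the age and subset averages, a cell means model the rest; the lone neonatal TN library is assumed to vary like the other groups. The log2 profiles used a prior count of 2. The 10 members and the marker lists were chosen with earlier results of these data known. Named were the members, other list miRNAs with at least 10 counts in a library (at most the 3 most abundant per list), and the 2 nearest profiles per tested member; scarcer list miRNAs were chosen for mention after their values were seen. Alternatives were 3 other scalings, no filter, a 100 CPM filter, DESeq2 1.42.0, non-robust dispersions, a replicate block, the largest precursor value, each library left out, and, added after seeing the data, the 2 miR-486 names summed. Only the age comparison over both subsets was checked on simulated data, with the same dispersion for all miRNAs and no subset difference. The other comparisons were not checked in that way. Loci came from GENCODE M21, and figures from matplotlib 3.10.9.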

Additional observations from a re-analysis of the deposited data

Results flagged for a closer look

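The age difference differed between VM and TN cells by a test of the difference itself (edgeR interaction) for 3 members: miR-486a-5p at -2.37 (edgeR adjusted p = 0.00108), miR-486b-5p at -2.36 (0.00108) and miR-143-3p at -2.46 (0.0296). The values are the neonatal minus adult log2 difference in VM less that in TN cells. MiR-486a-5p and miR-486b-5p count as 1 measurement. Of all 288 tested miRNAs, 7.99% passed this test, 18 of them with negative values. The call of miR-143-3p was lost without adult TN replicate 1, adult TN replicate 2 or neonatal VM replicate 1. MiR-486a-5p was highest in adult VM (270 ± 33.9 CPM), with 81.4 ± 6.52 in neonatal VM and 141 ± 28.9 in adult TN (SD, n = 2 each). The 1 neonatal TN library held 220 CPM, and there miR-451a, unlike miR-486a-5p, was highest (9.65 CPM). MiR-143-3p was highest in that same library (67.2 CPM), so each of the 3 values rests on 1 neonatal TN library.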

How the results depend on the processing

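Alternative values were tallied for a chosen set of member comparisons, without some of those of miR-126a-3p, miR-10a-5p and miR-10b-5p. Among them, 473 kept direction and side of the threshold, 33 gained a call, 16 lost one and 18 turned sign. The gained calls include miR-223-3p, which had no main test. Both miR-486 names turned sign and passed without the neonatal TN library, and are counted as turned. All that turned were uncalled subset averages in the main fit. These were miR-486a-5p (0.09 with library totals, 0.07 with upper quartile factors, -0.55 to 0.92 with libraries left out), miR-486b-5p (0.10, 0.08, -0.54 to 0.93), miR-10b-5p (0.08, 0.06, -0.52 to 0.17) and miR-143-3p (-0.06 to 1.63 with libraries left out). The count of all miRNAs called moved by over 1.5 times with the 100 CPM filter, which tests fewer miRNAs, to 79 for age, 41 for subset, 93 for age in VM and 69 for age in TN; with no filter or DESeq2 the interaction had 43 and 38 calls against 23. With libraries left out, the counts ran from 18 to 111 for subset, 83 to 179 for age in TN, 23 to 142 for subset in adult cells and 6 to 86 for the interaction. The higher share of calls was 43.7% for subset and 68.6% and 69.9% with library totals and upper quartile factors, 42.6% and 70.5% for age in VM with library totals, 55.1%, 73.6% and 41.5% for age in TN with both, and 21.7%, 36.4% and 60.0% for the interaction with RLE and upper quartile factors.

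Replicate differences correlated at 0.0165, 0.138 and -0.16 between groups. With only 2 libraries behind each difference, these values cannot decide whether shared numbers pair the libraries. The labels used here do not say. The replicate block gave 42 subset calls against 71 and, among the members, changed 1 call, the interaction of miR-126a-5p. Without the neonatal TN library the age comparison in TN cells and the interaction could not be fitted. Without a filter, miR-223-3p passed between adult subsets (2.46, edgeR adjusted p = 0.00356) and with age in VM (-2.07, 0.00438). It also passed by subset over both ages (1.89, edgeR adjusted p = 0.0106) and with age over both subsets (-1.65, 0.0132). MiR-451a did not pass with age (1.12, edgeR adjusted p = 0.13) or in TN cells (1.97, 0.0721). The 100 CPM filter left miR-486 and miR-10a-5p alone among the members. Small counts limit the adult TN values of miR-451a, miR-223-3p, both miR-126a arms and miR-143-3p, at 4 to 21 counts. Without either neonatal VM library miR-126a-3p was under the filter and has no value.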
